A study of Homo sapiens
Mus musculus and Mus musculus and Homo sapiens with 3 samples.

Results

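The proteasome is the protease that degrades proteins tagged with ubiquitin. The set described here holds 31 genes for its constitutive subunits, chosen by gene name and by their place in the particle. They are 7 alpha and 7 beta subunits of the barrel-shaped core, 6 ATPases at the base of the regulatory cap and 11 other subunits of the base and lid of that cap. All 31 were found in both species, among 15472 gene symbols shared by all the files, and all 31 passed the filter on low counts.

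The alpha rings form the gate of the core, and the beta rings hold the peptidase sites inside it. The ATPases unfold a substrate and thread it through the gate, while the lid removes its ubiquitin chain. Finished particles contain these subunits in fixed proportions, and a transcription factor, NFE2L1, raises many of their genes together when proteasome activity falls short. Protein degradation is of standing interest in neurons, which no longer divide and cannot dilute damaged proteins.

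Human and mouse pluripotent cells were differentiated in vitro towards motor neurons as embryoid bodies, sampled every 48 h in human and every 24 h in mouse, and profiled by droplet 3′ single-cell RNA-seq. The human cells were the lines NCRM1 and RUES1, both labelled as induced pluripotent cells, and the mouse cells were embryonic stem cells of strain C57BL/6. Every culture carried a lentivirus with GFP under the CAGGS promoter and a 6 bp barcode, and GFP+ cells were sorted, so no group lacks virus, reporter or sort. The 3 libraries gave 4 library parts. NCRM1 and mouse replicate 1 were the parts of 1 mixed library, while RUES1 and mouse replicate 2 each had a separate library. Both human parts are of different lines, every library pooled days that cannot be told apart, and nothing in the labels says that the mouse libraries were separate cultures. A p-value between species therefore rests on the spread between these library parts, with n = 2 per species, taking the 3 classes of each as separate. Between classes, constant differences between library parts were removed. A p-value there measures how far the change between classes varies between library parts, pooled over both species, again with n = 2 per species.

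Total depth was 28577630 to 83969715 UMIs per library part, over 1881 to 2783 cells. The mixed library's files shared 60 cell barcodes, which were left out of both. Each cell of at least 7000 UMIs was thinned to 7000 UMIs and placed in a class by 3 genes. Shallower cells entered no class. They were 394 cells in NCRM1, 344 in RUES1, and 67 and 153 in mouse replicates 1 and 2. The cells deep enough were 83.0% and 80.9% in human and 96.3% and 94.3% in mouse. SOX2+ progenitors had at least 1 SOX2 UMI, no NEUROG2 UMI and at most 2 STMN2 UMIs. NEUROG2+ cells, on their way to becoming neurons, had at least 1 NEUROG2 UMI. STMN2+ neurons had at least 3 STMN2 UMIs and none of SOX2 or NEUROG2. The classes held 524 to 880 progenitors, 445 to 622 NEUROG2+ cells and 121 to 339 neurons per library part, and 14.1% to 32.3% of gated cells fell in none. Summed over 8 neuronal markers, the level was 48.7 to 297 CPM (a gene's UMIs scaled to the total UMIs of its class and library part) in progenitors and 6790 to 12029 CPM in neurons. STMN2, which set the neuron class, is 1 of these 8 markers, so part of that gap was fixed by the gate. Summed over 7 cycling markers the level was 899 to 1147 CPM in progenitors, 672 to 1088 CPM in NEUROG2+ cells and 37.0 to 135 CPM in neurons, with no marker at 0. The 7 progenitor markers, SOX2 among them, summed to 3931, 6661, 1491 and 1507 CPM in progenitors of NCRM1, RUES1 and mouse replicates 1 and 2. In the same order they summed to 4366, 5843, 1633 and 2162 CPM in NEUROG2+ cells and 1990, 1937, 659 and 683 CPM in neurons. The 8 mesenchyme or neural crest markers summed to 397 CPM in RUES1 progenitors and to 5.85 to 30.1 CPM in the other progenitor classes. The 7 epithelium or endoderm markers summed to 106, 219, 22.6 and 75.5 CPM in progenitors of NCRM1, RUES1 and mouse replicates 1 and 2. In their neurons they summed to 59.0, 52.4, 2.65 and 3.85 CPM. The 3 pluripotent markers, in the same order, summed to 55.0, 64.9, 1.08 and 2.28 CPM in progenitors and 18.7, 14.4, 1.06 and 0.361 CPM in neurons. Ribosomal protein genes took 23.8% to 35.7% of UMIs in progenitors and 14.1% to 25.1% in neurons. The 8 handling stress genes summed to 1066, 767, 430 and 133 CPM in progenitors of NCRM1, RUES1 and mouse replicates 1 and 2, and to 884, 969, 745 and 317 CPM in their neurons, so they moved with species in progenitors and with class in mouse. The effect of leaving out dividing progenitors is given below, and the part of the other markers in the results was not tested.

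In SOX2+ progenitors the core subunits were the more abundant transcripts. Each UMI stands for 1 captured molecule, so levels of different genes were compared in CPM without scaling by length, although capture can still differ between genes. The 14 core subunits summed to 3198 CPM in NCRM1, 3643 in RUES1, 4909 in mouse replicate 1 and 6499 in mouse replicate 2. The 17 subunits of the cap summed to 1774, 2120, 2583 and 3742 CPM in the same order. The ratio of core to cap was 1.79 ± 0.08 (SD, n = 4 library parts) in progenitors. Over all classes and library parts it ran from 1.57 to 1.90, the lowest value being that of RUES1 neurons. All 31 subunits together took 0.497% and 0.576% of UMIs in human progenitors and 0.749% and 1.02% in mouse progenitors.

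PSMA7, an alpha subunit, was the highest alpha transcript in every progenitor class, at 460 and 515 CPM in NCRM1 and RUES1 and 658 and 903 CPM in mouse replicates 1 and 2. Among the beta subunits the order differed between species. PSMB5, which carries the chymotrypsin-like site, stood at 424 CPM in NCRM1, where it was the highest beta transcript. PSMB1, a beta subunit with no peptidase site, led in RUES1 at 479 CPM, and PSMB6, which carries the caspase-like site, led in mouse at 508 and 636 CPM. PSMB4 was the lowest beta transcript in human, at 71.0 and 80.8 CPM, where the next lowest, PSMB7, stood at 227 and 162 CPM. Mouse progenitors held 248 and 299 CPM of PSMB4. The highest beta transcript was 5.97 and 5.93 times the lowest in the human and 2.05 and 2.73 times in the mouse classes. The ATPases lay closer together, with highest over lowest of 3.06 and 3.45 in the human and 1.31 and 1.98 in the mouse progenitor classes. PSMC2 was the lowest ATPase in both human classes at 57.3 and 61.3 CPM, against 134 and 233 CPM in mouse. In the lid, PSMD8 was highest in human progenitors at 223 and 241 CPM, and PSMD7, the partner of the deubiquitinase PSMD14, was highest in mouse at 259 and 414 CPM.

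**Figure D1:**
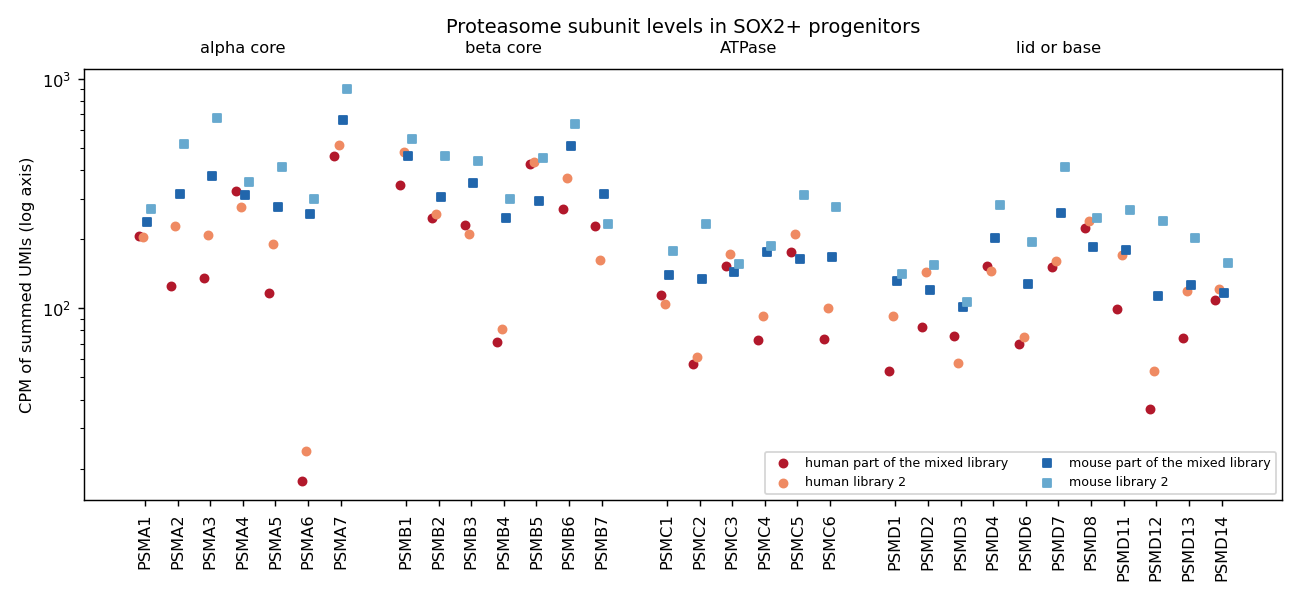
CPM of each subunit in SOX2+ progenitors on a log axis, by particle part, with circles for the human and squares for the mouse library parts. PSMA6 in the human parts, at 17.7 and 24.0 CPM, lies below every other point, and the ATPases and lid or base subunits lie mostly below the core subunits.

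The rank order of the 31 levels was shared closely within a species and less so between species. Spearman's rho over the members in progenitors was 0.93 between the human and 0.87 between the mouse library parts. Across species it ran from 0.59 to 0.73. These are descriptions over genes of shared libraries, with no test.

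PSMA6 stood farthest from the rest of its ring, in human and not in mouse. It stood at 17.7 CPM (183 UMIs) in NCRM1 and 24.0 CPM (275 UMIs) in RUES1 progenitors, where the next lowest alpha subunit, PSMA5, stood at 117 and 191 CPM. Mouse progenitors held 256 and 299 CPM. The highest alpha transcript was 26.0 and 21.5 times the lowest in the human classes and 2.78 and 3.33 times in the mouse classes. Without PSMA6 the human ratios were 3.94 and 2.70, near those of mouse. The human value was low in each class, at 18.4 and 20.6 CPM in NEUROG2+ cells and 23.1 and 19.1 CPM in neurons. After thinning, 10.3% and 18.1% of human progenitors had a PSMA6 UMI, against 82.2% and 85.3% of mouse progenitors. PSMB1, for comparison, was seen in 90.4% to 97.8% of progenitors of all library parts.

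In the RefSeq annotation of GRCh38.p14, human PSMA6 lies at chr14:35278558-35317493. A record named PRORP-PSMA6, of type lncRNA, lies at chr14:35121839-35317471 and overlaps it. Of the 31 members, PSMA6 was the only member whose symbol is joined to a neighbour's in an overlapping record. No entry of that name was analysed here. KIAA0391, the older symbol of PRORP, held 1 UMI in NCRM1 and 46 UMIs in RUES1. The authors' annotation is not given in the sources used here, so the part of this record in the low value was not tested. The human minus mouse log2 difference in progenitors had a median of -0.87 over the 13 members that another RefSeq gene overlaps and of -0.72 over the 18 that none overlaps.

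No subunit passed the test between NEUROG2+ cells and progenitors. Of the 31 members, 0 passed edgeR's quasi-likelihood test at an adjusted p under 0.05 in human, where 4.7% of 11860 genes did (3.58% higher and 1.12% lower). In mouse it was 0 as well, where 7.62% did (5.75% higher and 1.87% lower). No member reached an unadjusted p under 0.05 in either species, and DESeq2 called 0 in each. The member changes ran from -0.14 to 0.26 on the log2 scale in human, with a median of 0.02, and from -0.17 to 0.12 in mouse, with a median of 0.02. The medians over all genes were -0.04 and -0.05. The NEUROG2+ class overlaps the others, since 417 of its 622 cells in NCRM1, 369 of 500 in RUES1, 235 of 445 in mouse replicate 1 and 214 of 488 in mouse replicate 2 also had a SOX2 UMI, and 60 to 121 cells per library part had at least 3 STMN2 UMIs. The difference between the species in this change was called for 0 members (DESeq2 0, unadjusted 0), against 0.329% of all genes (0.194% higher and 0.135% lower).

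Neurons differed from progenitors in some subunits, more of them lower than higher. In human, 2 members were higher and 5 lower by the edgeR test, where 48.0% of all genes were called (21.6% higher and 26.3% lower). In mouse, 0 were higher and 9 lower, where 59.9% were called (28.5% higher and 31.4% lower). RLE (relative log expression) scales each library by a median of gene ratios. With its size factors the mouse split was 1 higher, PSMD8, and 6 lower, where 60.0% of all genes were called. DESeq2 gave 1 and 6, where 53.0% were. The share called, 7 of 31 in human and 9 of 31 in mouse, was thus below that of all genes in both species. The median change of the 31 was -0.13 in human and -0.17 in mouse, against -0.07 and -0.05 over all genes. The negative medians rest on the replicate 2 libraries. The median over members was 0.05 in NCRM1 and 0.04 in mouse replicate 1, but -0.23 in RUES1 and -0.40 in mouse replicate 2. With 1 library part left out, the human median was 0.09 without RUES1 and -0.28 without NCRM1, against -0.03 and -0.12 over all genes. The mouse median was 0.04 without mouse replicate 2 and -0.31 without mouse replicate 1, against -0.05 and 0.0 over all genes. The library part was kept as a block since the classes come from the same libraries. With no replicate block 0 members were called in either species, where 16.5% of all genes were called in human and 26.8% in mouse.

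**Figure D2:**
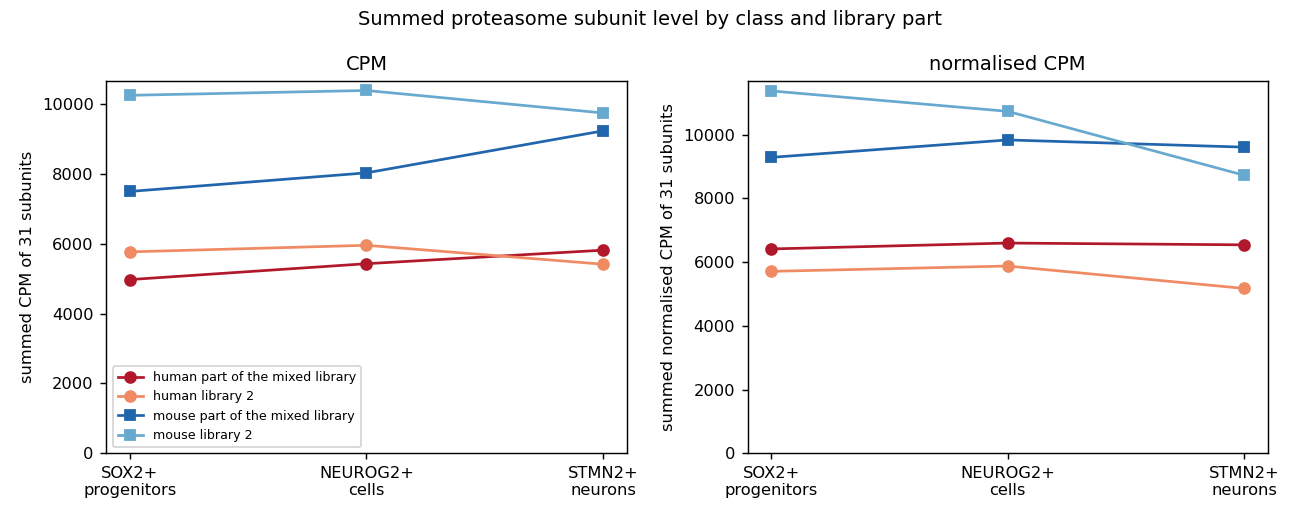
Summed level of the 31 subunits in each class and library part, in CPM (left) and in normalised CPM, that is UMIs scaled to the summed UMIs of the tested genes times the edgeR scaling factor (right), both axes from 0. On the CPM scale the sum was higher in neurons than in progenitors in the mixed library (4971 and 5812 in NCRM1, 7492 and 9224 in mouse replicate 1) and lower in the replicate 2 libraries (5763 and 5411 in RUES1, 10241 and 9736 in mouse). In normalised CPM the rise was smaller (6415 and 6544 in NCRM1, 9287 and 9608 in mouse replicate 1). The fall was larger (5712 and 5175 in RUES1, 11373 and 8725 in mouse replicate 2).

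Among the alpha subunits, PSMA5 and PSMA3 fell in human neurons and PSMA1 and PSMA6 in mouse neurons. PSMA5 was measured at 151 and 103 normalised CPM in progenitors and neurons of NCRM1 and at 189 and 103 in RUES1. Every human neuron value thus lay below every human progenitor value. Its log2 change was -0.72 ± 0.14 (SE; edgeR adjusted p = 0.0016). In mouse it stood at 342 and 349 in replicate 1 and 457 and 343 in replicate 2, where the groups overlapped. Its mouse change was -0.20 ± 0.13 (edgeR adjusted p = 0.22). The difference of the change between the species was -0.52 ± 0.19 (edgeR adjusted p = 0.073), the lowest adjusted p of any member and still above the threshold. PSMA3 changed by -0.36 ± 0.12 in human (edgeR adjusted p = 0.031), a call that DESeq2 did not make. PSMA1 changed by -0.53 ± 0.12 in mouse (edgeR adjusted p = 0.0028), with 294 and 301 normalised CPM in progenitors of replicates 1 and 2 and 233 and 183 in neurons. PSMA6 changed by -0.45 ± 0.13 in mouse (edgeR adjusted p = 0.013). PSMA7, the most abundant of the ring, had a positive change of 0.31 ± 0.13 in human that missed the threshold (edgeR adjusted p = 0.081).

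PSMB2 was the beta subunit that fell in both species. It belongs to the beta ring but has no peptidase site. In human it stood at 320 and 254 normalised CPM in progenitors of NCRM1 and RUES1 and at 218 and 195 in their neurons. In mouse it stood at 380 and 513 in progenitors and at 329 and 358 in neurons. No neuron value of either species reached the lowest progenitor value of that species. The change was -0.47 ± 0.12 in human (edgeR adjusted p = 0.0069) and -0.37 ± 0.11 in mouse (edgeR adjusted p = 0.016). PSMB6, with the caspase-like site, fell by 0.34 ± 0.11 on the log2 scale in mouse (edgeR adjusted p = 0.026), a call that was lost under 8 of 15 alternatives, DESeq2 among them. PSMB5, with the chymotrypsin-like site, had the most positive mean change of its ring, 0.06 ± 0.12 in each species, with edgeR adjusted p of 0.70 in each. PSMB7, with the trypsin-like site, was not called in either species.

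PSMC3 was the ATPase that fell in both species, by 0.54 ± 0.14 on the log2 scale in human (edgeR adjusted p = 0.0080) and by 0.41 ± 0.14 in mouse (edgeR adjusted p = 0.022). The human values were 198 and 170 normalised CPM in progenitors and 152 and 105 in neurons. The mouse values were 178 and 173 in progenitors and 143 and 122 in neurons, so neurons and progenitors did not overlap in either species. The mouse call was lost under 6 of 15 alternatives. PSMC4 changed by -0.41 ± 0.15 in mouse (edgeR adjusted p = 0.036), a call that DESeq2 did not make. PSMC6 had the most positive mean change, 0.09 ± 0.15 in human and 0.09 ± 0.14 in mouse, and was not called (edgeR adjusted p = 0.64 and 0.62). PSMC5 and PSMC2, the highest and lowest ATPases by mean level over the 4 library parts, changed by -0.23 ± 0.13 and -0.09 ± 0.16 in human and were not called in either species.

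Averaged over the species, the lid and base held both the most negative and the most positive change. PSMD11, a lid subunit known for raising proteasome activity in human embryonic stem cells, stood at 128 and 169 normalised CPM in NCRM1 and RUES1 progenitors and at 90.2 and 120 in their neurons. In mouse it stood at 223 and 296 in progenitors and 155 and 181 in neurons. It was lower in neurons in 4 of 4 library parts, by log2 changes of -0.50 to -0.72. The fitted change was -0.50 ± 0.11 in human (edgeR adjusted p = 0.0043) and -0.62 ± 0.11 in mouse (edgeR adjusted p = 5.7e-04). The mouse call was kept under 14 of 15 alternatives. PSMD8, a lid subunit, stood at 288 and 239 in human progenitors and at 421 and 386 in human neurons, a change of 0.62 ± 0.12 (edgeR adjusted p = 0.0015). In mouse it stood at 229 and 276 in progenitors and 323 and 297 in neurons, a change of 0.30 ± 0.12 that missed the threshold (edgeR adjusted p = 0.052). All 4 library parts showed the direction, with changes of 0.11 to 0.69.

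PSMD4, the subunit that binds ubiquitin chains, was the other member that rose in human neurons, by 0.35 ± 0.12 on the log2 scale (edgeR adjusted p = 0.030), with 197 and 144 normalised CPM in progenitors and 252 and 183 in neurons. The groups overlapped across lines, and the 2 lines rose alike, by 0.36 and 0.35. In mouse it stood at 250 and 312 in progenitors and 266 and 259 in neurons (edgeR adjusted p = 0.52). PSMD7 had the most negative mouse change, -0.63 ± 0.17 (edgeR adjusted p = 0.0078), from 321 and 460 normalised CPM in progenitors to 265 and 236 in neurons. PSMD12, a lid subunit, changed by -0.40 ± 0.14 in mouse (edgeR adjusted p = 0.029), a call lost under 8 of 15 alternatives. PSMD3, the lowest of the lid or base subunits by mean level, was not called in either species.

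**Figure D3:**
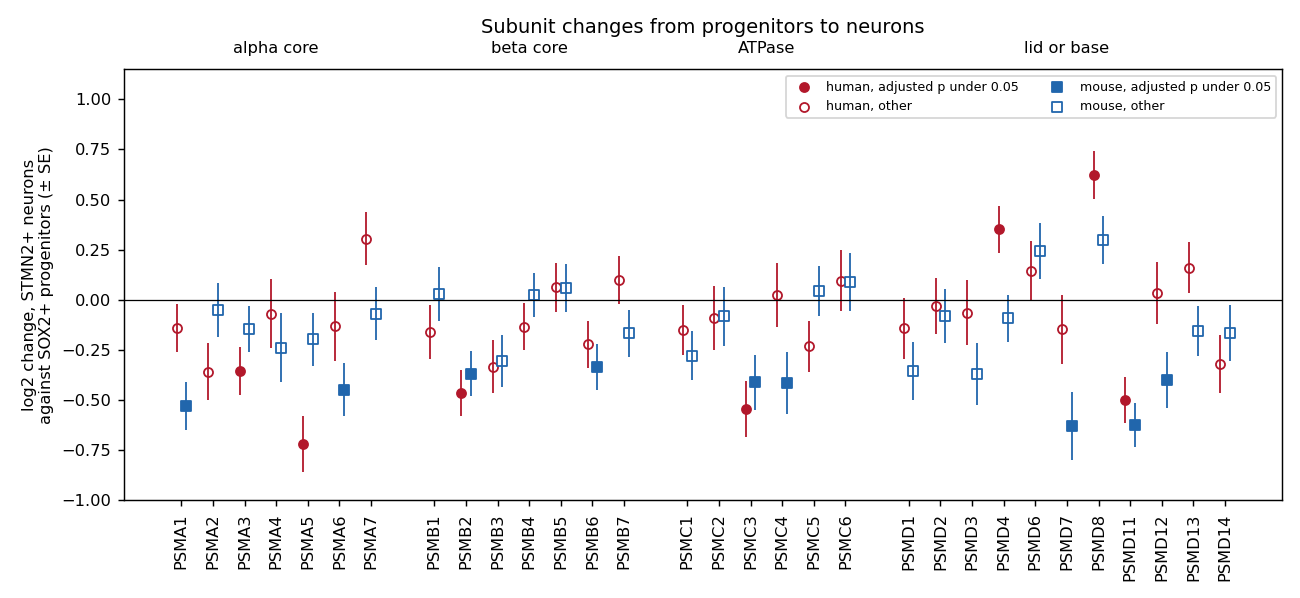
log2 change of each subunit from SOX2+ progenitors to STMN2+ neurons with its standard error, human as circles and mouse as squares, filled where the edgeR adjusted p was under 0.05. PSMB2, PSMC3 and PSMD11 are filled and below 0 in both species, and PSMD8 is the highest point.

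PSMB2, PSMC3 and PSMD11 were the 3 members called in both species, 3 of 7 of the human and 3 of 9 of the mouse calls. They are 9.68% of the members, where 18.0% of all genes were called lower in both species. Over all genes 68.9% of the human and 55.2% of the mouse calls were shared in direction. The difference in change between the species was called for 0 of 31 members by edgeR, where 22.9% of all genes were called (10.6% higher and 12.4% lower). DESeq2 called 0 as well, and 3 members had an edgeR p below 0.05 before adjustment. The median difference over the members was 0.11 in full, 0.15 without mouse replicate 1 and -0.11 without mouse replicate 2. The members named above by their called changes alone, PSMA1, PSMA3, PSMB6, PSMC4, PSMD4 and PSMD12, were picked after their values were seen.

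Dividing progenitors, with a UMI of MKI67, TOP2A, CDK1 or CCNB1 after thinning, had a higher summed subunit level than the other progenitors in human and not in mouse. The sum was higher by 6.84% in NCRM1 and 13.1% in RUES1, with 25 of 31 members higher in each line. In mouse it changed by -3.77% and -0.675%. The mouse sums rest on fewer non-dividing cells, 174 and 100 against 528 and 780 dividing ones. In human they were 273 and 224 against 436 and 300. The human gap was widest for the summed ATPases, at 22.2% and 29.3%, with 6 of 6 higher in NCRM1 and 5 of 6 in RUES1. Among them PSMC3 differed most, at 174 against 113 CPM in NCRM1 and 202 against 119 CPM in RUES1. With 1 value per library part these are descriptions, and the share of all genes higher in dividing progenitors was not counted. With dividing progenitors left out, the neuron comparison called 6 members in human, 3 of them higher, and 3 in mouse, 2 of them lower. The shares of all genes called were 42.3% and 47.6%. The median change of the members then was 0.03 in human and -0.03 in mouse. PSMC3 and PSMD11 lost their human calls in that setting and PSMB2 and PSMC3 their mouse calls, while PSMD11 kept its mouse call.

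Human levels were below mouse levels for most subunits. In progenitors 0 members were higher in human and 16 lower by the edgeR test, where 33.4% of all genes were called (19.9% higher and 13.4% lower). In neurons 0 were higher and 11 lower, where 26.6% were called (14.7% higher and 11.8% lower). The 11 were all among the 16, but both comparisons use the same libraries. The median human minus mouse log2 difference of the members was -0.81 in progenitors and -0.60 in neurons, and the medians over all genes were 0.12 and 0.04. By particle part the medians in progenitors were -1.23 for alpha, -0.64 for beta, -0.88 for ATPase and -0.81 for lid or base subunits. Genome, annotation and line go with species, so their part cannot be told apart from it. Without mouse replicate 2, the deepest library, the member median was -0.70 in progenitors and -0.68 in neurons, against 0.22 and 0.18 over all genes. Without RUES1 it was -0.81 and -0.58, against -0.16 and -0.11 over all genes. With a replicate block, since replicate 1 of both species is 1 library, the counts were 21 and 17, where 51.0% and 41.9% of all genes were called. The species fit took the 3 classes of a library part as separate although they deviate together, so its p-values are too small. With the 4 profiles of 1 class only, added after seeing the data, the counts were 12 in progenitors and 8 in neurons, all lower in human. The shares of all genes called were 29.4% and 16.7%.

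PSMA6 had the largest difference, -3.80 ± 0.26 in progenitors (edgeR adjusted p = 5.6e-05) and -3.45 ± 0.26 in neurons (edgeR adjusted p = 1.1e-04). With the profiles of 1 class only its edgeR adjusted p was 0.0014 and 0.0069. PSMD12 followed in progenitors at -2.03 ± 0.36 (edgeR adjusted p = 0.0030), with 46.8 and 52.9 normalised CPM in human and 141 and 266 in mouse. PSMB4, a beta subunit with no peptidase site, differed by -1.90 ± 0.23 (edgeR adjusted p = 5.1e-04), with 91.6 and 80.1 in human and 308 and 332 in mouse. PSMC2 differed by -1.66 ± 0.33 (edgeR adjusted p = 0.0049) and PSMA3 by -1.67 ± 0.30 (edgeR adjusted p = 0.0034). These 5 had the most negative differences in progenitors. Their human values lay below every mouse value, which such a choice makes likely with n = 2 per species. The share of all genes that separate this way was not counted. With the progenitor profiles only, the edgeR adjusted p was 0.0098 for PSMD12, 0.0061 for PSMB4, 0.013 for PSMC2 and 0.014 for PSMA3. RefSeq places no other gene over PSMB4 (chr1:151399573-151401937) or PSMD12 (chr17:67337916-67366577), while PMPCB and 2 further records overlap PSMC2 (chr7:103347524-103369395). The only positive differences in progenitors were those of PSMB5 (0.18 ± 0.29), PSMC3 (0.07 ± 0.24) and PSMD8 (0.06 ± 0.22), none of which passed (edgeR adjusted p = 0.67 to 0.86) and each of which was negative under at least 1 alternative.

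**Figure D4:**
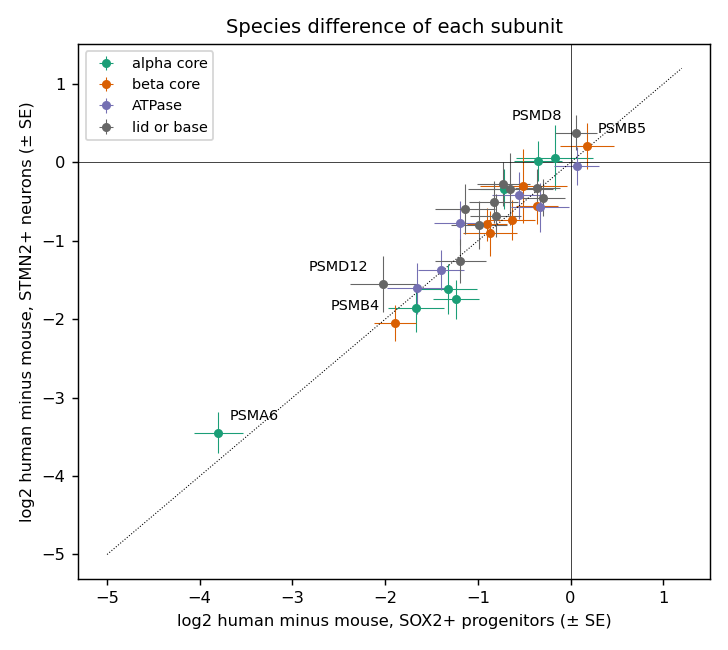
Human minus mouse log2 difference of each subunit in SOX2+ progenitors (horizontal) and STMN2+ neurons (vertical), with standard errors, coloured by particle part, and the line of equal differences dotted. PSMA6 lies alone at -3.80 and -3.45, and the other subunits lie between -2.03 and 0.18 in progenitors.

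The replicates of a species were counted on different annotations, with 32739 and 56832 gene entries in human and 27999 and 54087 in mouse, so each member was compared between them. Library, mix of cells and, in human, line differ between the replicates too, so the part of the annotation cannot be told apart. The log2 ratio of CPM, replicate 1 over replicate 2, was taken over all cells, and the median of the 31 members was subtracted. That median, -0.16 in human and -0.38 in mouse, was also subtracted for all other genes. The members are thus centred on their own median and all genes are not, which can raise the shares of all genes given here. In human 0 members lay past 1 in size, where 15.9% of the 5346 genes at or above the lowest member's level did. In mouse it was 0 members, where 10.7% of 1321 genes did. PSMA6 itself stood at -0.08 in human and 0.23 in mouse, so the level was low on both human annotations. Past 0.58 lay 6 members in human and 2 in mouse. They were PSMD3 (0.71), PSMB7 (0.59), PSMD1 (-0.69), PSMA2 (-0.68), PSMD11 (-0.59) and PSMD2 (-0.58) in human, and PSMB7 (0.86) and PSMD12 (-0.61) in mouse. The shares of all genes past 0.58 were 36.1% and 27.0%. PSMB7 was past it in the same direction in both species, whose replicates 1 are the parts of 1 library.

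**Figure D5:**
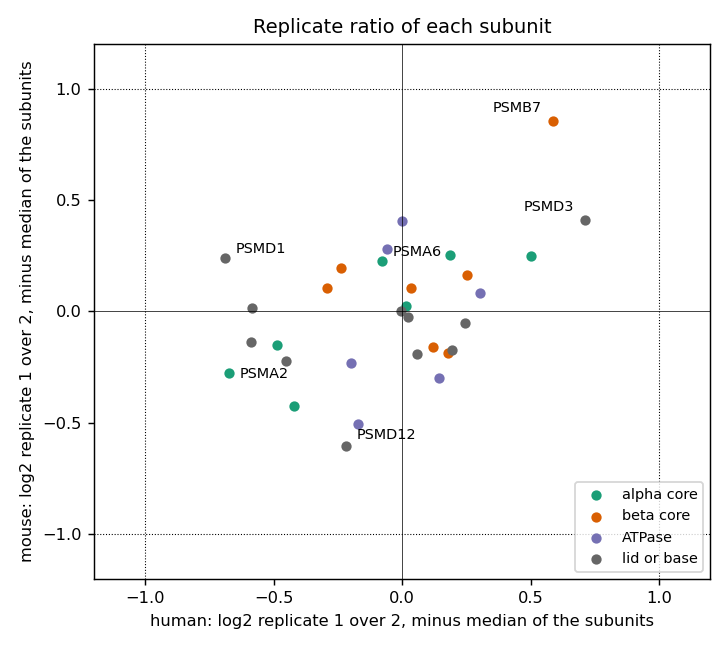
log2 ratio of replicate 1 over replicate 2 for each subunit, less the median of the 31, in human (horizontal) and mouse (vertical), with dotted lines at -1 and 1. No subunit lies outside the dotted lines, and PSMB7 at 0.59 and 0.86 lies farthest towards the upper right.

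Duplicate entries held few reads, with 1 exception. In NCRM1 the symbol PSMA2 had 2 entries, with 1 UMI in the first and 3391 UMIs in the second, while RUES1 had a lone entry with 6903 UMIs. Reading the first NCRM1 entry alone would have made PSMA2 look absent, so entries of a symbol were added. A second PSMA1 entry in NCRM1 held 0 UMIs. Pseudogene entries named after a member held at most 1 UMI in human and 6 UMIs in mouse, and adding the human ones changed no count of calls.

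Near copies elsewhere in the genome were sought in mouse, for which transcript sequences were at hand (GENCODE, mm10). The last 300 bases of the longest protein-coding transcript of each gene were searched, and its other transcripts were not. For 19 of the 31 genes, PSMA6 among them, no gene outside the set shared a 31-base word with that stretch. Psma5 (chr3:108256926-108279974, plus strand) and the processed pseudogene Gm8394 (chr10:85313488-85314439, plus strand) shared 41.1% of such words. They are shown because this stretch lies within the last 300 bases of the Psma5 transcript, near the end from which reads were taken. Both lines give the last 120 bases of the coding sequence of Psma5 and their match in Gm8394, with the 2 bases that differ in capitals (98.3% identity).
Psma5: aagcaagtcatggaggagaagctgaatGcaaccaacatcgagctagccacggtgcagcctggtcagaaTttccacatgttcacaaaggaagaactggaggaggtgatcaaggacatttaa
Gm8394: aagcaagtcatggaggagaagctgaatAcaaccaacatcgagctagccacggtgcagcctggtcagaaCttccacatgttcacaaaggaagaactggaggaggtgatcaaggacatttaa
In mouse replicate 1 Gm8394 held 36 UMIs, 0.340% of the 10600 UMIs of Psma5, and no entry of that name was analysed in replicate 2. The copy with the most UMIs was Gm4950, a processed pseudogene that shared 54.1% of the words with Psmb3 and held 2.60% of its UMIs in replicate 1 and 0.191% in replicate 2. Psmb5 shared 61.5% with the processed pseudogene Gm3375, and Psmd2 shared 51.9% with the transcribed processed pseudogene Gm5422. Psmd1 shared 74.4% with Gm21972, a record of type nonsense-mediated decay and not a pseudogene. Its position was not looked up, so it may not lie elsewhere in the genome. Where words are shared, reads of a gene and of the other record cannot be fully told apart.

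Beyond the 31, 34 further proteasome genes were listed by function, of which 31 were in all files and 27 were tested. In neurons against progenitors, 5 were higher and 8 lower in human by the edgeR test, and 4 higher and 14 lower in mouse. The shares of all genes called were 48.0% and 59.9%. NEUROG2+ cells had 0 called in either species. The assembly chaperones, which build the particle but are not part of it, were lower in 4 of 8 tested in human and 6 of 8 in mouse, and 0 were higher, where 26.3% and 31.4% of all genes were lower. PSMG1, which pairs alpha subunits during ring assembly, changed by -1.27 ± 0.21 in human (edgeR adjusted p = 5.2e-04) and -1.30 ± 0.20 in mouse (edgeR adjusted p = 2.6e-04). It stood at 103 and 92.3 normalised CPM in human progenitors and 41.5 and 40.5 in human neurons. PSMG1 and AKIRIN2, which carries proteasomes into the nucleus, kept their calls under all 15 alternatives in both species. AKIRIN2 rose by 1.08 ± 0.13 on the log2 scale in human (edgeR adjusted p = 6.9e-05) and 0.67 ± 0.12 in mouse (edgeR adjusted p = 7.3e-04). NFE2L1, the transcription factor of proteasome genes, was not called in either.

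Of 5 shuttle receptors, which bring ubiquitinated proteins to the particle, UBQLN2 rose in both species, by 1.10 ± 0.18 in human (edgeR adjusted p = 5.5e-04) and 0.59 ± 0.15 in mouse (edgeR adjusted p = 0.0067). RAD23B, DDI2 and UBQLN4 fell in mouse, and UBQLN1 rose in human. Of the 5 activators and inhibitors, 2 were higher and 2 lower in human, and 1 was higher and 1 lower in mouse. PSME1 rose by 0.48 ± 0.14 (edgeR adjusted p = 0.016) and PSMF1 by 0.56 ± 0.14 (edgeR adjusted p = 0.0067) in human. PSME2 fell in human, by 0.50 ± 0.14 on the log2 scale (edgeR adjusted p = 0.016), and rose in mouse, by 0.53 ± 0.14 (edgeR adjusted p = 0.0068). PSME3, the nuclear activator, fell in both species, by 0.60 ± 0.17 on the log2 scale in human (edgeR adjusted p = 0.015) and 0.84 ± 0.15 in mouse (edgeR adjusted p = 6.0e-04). The human call of PSME3 was lost under 6 of 15 alternatives. RPS27A, which encodes a ribosomal protein fused to ubiquitin, fell in both species, by 1.01 ± 0.12 on the log2 scale in human (edgeR adjusted p = 8.2e-05) and 0.99 ± 0.12 in mouse (edgeR adjusted p = 5.6e-05). Of the inducible and tissue subunits 1 of 5, PSMB10, passed the filter on low counts, and it fell by 1.05 ± 0.24 on the log2 scale in mouse (edgeR adjusted p = 0.0034).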

How the data were processed

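Raw UMI counts per gene and cell were deposited by the authors. The submitters' processing notes list Cell Ranger 3.1.0 and, as genome builds, hg38 and mm10. The gene annotation and the removal of empty droplets are not given in the sources used here. Cells needed 1000 UMIs, 500 genes and at most 10% mitochondrial UMIs, and Scrublet in scanpy 1.11.5 (expected rate 5%, seed 1) removed 5 to 32 doublets per library part. Counts of entries sharing a symbol were added, and symbols were matched across species in capitals. Counts of all UMIs were summed per class and library part into 12 profiles. edgeR 4.0.16 (R 4.3.3) normalised them by TMM, filtered low genes (filterByExpr, 11860 genes left) and tested them by quasi-likelihood with Benjamini-Hochberg adjustment at 0.05, in 1 fit. Class comparisons kept the library part as a block, and species comparisons did not. Classes of 1 library part deviated together (r of 0.54 to 0.79). SE is the log2 change over the root of the F statistic. DESeq2 1.42.0 was an alternative.

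The fit was tested on simulated counts before use. Members and lists were chosen with earlier results of these data known. Named genes were the highest, the lowest, the most positive and the most negative in change of each particle part, and any replicate outlier, of which there was none. Mouse sequences came from GENCODE transcripts and human positions from RefSeq. Lineage barcodes and days were not analysed here, and 3 genes of the further lists are not reported here.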

Additional observations from a re-analysis of the deposited data

Results flagged for a closer look

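The change from progenitors to neurons differed between human and mouse, by the interaction term of the edgeR fit, for 0 of the 31 subunits and for 6 of the 27 further proteasome genes tested, where 22.9% of all genes were called. UBB, a polyubiquitin gene, differed by -1.29 ± 0.15 (human minus mouse, log2, edgeR adjusted p = 4.1e-04). It stood at 1129 and 1009 normalised CPM in human progenitors and 777 and 587 in human neurons, and at 1912 and 866 in mouse progenitors and 3028 and 1315 in mouse neurons. UCHL5, a deubiquitinase of the cap, differed by 1.80 ± 0.24 (edgeR adjusted p = 7.6e-04), with 85.3 and 117 in mouse progenitors and 28.7 and 44.7 in mouse neurons, against 23.7 and 31.8 in human progenitors and 23.8 and 47.5 in human neurons. TXNL1, a thioredoxin bound to the cap, differed by 1.17 ± 0.16 (edgeR adjusted p = 7.7e-04). These 3 calls were lost only with no replicate block, among 15 alternatives. PSME2, an activator subunit, differed by -1.03 ± 0.20 (edgeR adjusted p = 0.0054), PSMG2, an assembly chaperone, by 0.99 ± 0.21 (edgeR adjusted p = 0.0073) and PSMF1, an inhibitor, by 0.63 ± 0.20 (edgeR adjusted p = 0.045). The calls of these 3 were lost under 4, 5 and 10 of 15 alternatives.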

How the results depend on the processing

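Leaving out 1 library part at a time, with the lone part assumed to vary like the others, gave 0 to 13 for human neurons against progenitors (7 in full), 3 to 13 for mouse (9), 0 to 3 for the difference between species (0), 6 to 11 for human against mouse progenitors (16) and 5 to 9 for human against mouse neurons (11). The share of all genes called moved as well in these fits, so the counts are not results about the members alone. With no replicate block the human and mouse neuron counts were 0 and 0, where 16.5% and 26.8% of all genes were called. With a replicate block human against mouse neurons gave 17, where 41.9% were called. In mouse an STMN2 threshold of 1 gave 5, a threshold of 6 gave 14, and leaving out dividing progenitors gave 3. The shares of all genes called were 55.9%, 60.8% and 47.6%. Leaving out dividing progenitors gave 1 for the difference between species, where 11.1% of all genes were called. At an outlier limit of 0.58, 8 members stood out between replicates. With the profiles of 1 class only, added after seeing the data, human against mouse gave 12 and 8, where 29.4% and 16.7% of all genes were called. The median of all genes in progenitors moved from 0.12 to -0.02. In all, 115 values of these results held under their alternatives, that is changed by at most 1.5 times, and 18 moved. Those that held include the NEUROG2+ comparisons, with 0 members called in every setting, and changes as large as 16 to 11. Normalisation by RLE, DESeq2, no filter on low counts, doublets kept, sums of thinned counts, a gate without thinning and pseudogene entries added moved no count by over 1.5 times. The cause was not tested.

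Of the values of single genes, 68 changed sign, none of which passed the threshold in either setting. For human neurons against progenitors these were PSMC2 with sums of thinned counts (0.077), and PSMC2 (0.083), PSMC5 (0.038) and PSMD7 (0.035) without dividing progenitors. For mouse they were PSMA2 (0.048), PSMA7 (0.0030) and PSMC2 (0.10) with sums of thinned counts, and PSMA2 (0.029), PSMA5 (0.010), PSMA7 (0.096), PSMC2 (0.049) and PSMD4 (0.021) without dividing progenitors. PSMA2 was at 8.1e-05 with RLE, PSMB1 at -0.0088 with an STMN2 threshold of 6, and PSMB1 (-0.0092) and PSMC5 (-0.0028) changed with a gate without thinning. For human against mouse progenitors, PSMC3 was at -0.33 without dividing progenitors, PSMB5 (-0.041), PSMC3 (-0.20) and PSMD8 (-0.13) changed with the gate without thinning, and PSMC3 (-0.054) and PSMD8 (-0.057) with the profiles of 1 class only. For human against mouse neurons, PSMA1 was at -0.0054 with RLE, -0.0043 with DESeq2, -0.044 with an STMN2 threshold of 1, -0.0082 with the profiles of 1 class only and -0.29 with the gate without thinning. PSMB5 was at -0.0059 with that gate, and PSMC3 at 0.00054 with a threshold of 6 and 0.0078 with sums of thinned counts.

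Leaving out library parts gave these ranges. For human neurons against progenitors they were PSMA6 -0.43 to 0.23, PSMB1 -0.40 to 0.073, PSMB4 -0.27 to 0.0039, PSMB5 -0.11 to 0.22, PSMC2 -0.34 to 0.17, PSMC4 -0.24 to 0.29, PSMD12 -0.10 to 0.18, PSMD3 -0.30 to 0.17 and PSMD7 -0.45 to 0.16. For mouse they were PSMA2 -0.25 to 0.23, PSMA3 -0.25 to 0.048, PSMA5 -0.33 to 0.028, PSMA7 -0.28 to 0.22, PSMB1 -0.11 to 0.25, PSMB4 -0.075 to 0.13, PSMB5 -0.044 to 0.25, PSMC2 -0.24 to 0.18, PSMC5 -0.055 to 0.22, PSMC6 -0.14 to 0.41 and PSMD4 -0.19 to 0.087. For human against mouse progenitors they were PSMB5 -0.047 to 0.43, PSMC3 -0.10 to 0.092, PSMC5 -0.65 to 0.098 and PSMD8 -0.13 to 0.20. For human against mouse neurons they were PSMA1 -0.24 to 0.13, PSMB5 -0.22 to 0.44, PSMC3 -0.46 to 0.17 and PSMD3 -1.13 to 0.11.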
